A study of Arabidopsis thaliana with 24 samples.

Results

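The type-A response regulators of Arabidopsis thaliana are 10 genes, ARR3 to ARR9 and ARR15 to ARR17, and their transcripts were followed through 3 sorted zones of the root meristem in 3 reporter lines. The members were taken by gene identifier from the authors' gene tables, and all 10 of them were found among 32619 gene rows. The RNA came from protoplasts of the Col-0 ecotype that had been sorted on green fluorescence into populations called Proximal, Medial and Distal. The PUB25 and SPT lines were labelled root meristem and the TMO5 line root meristematic xylem. PUB25 encodes a ubiquitin ligase, and SPT and TMO5 encode bHLH transcription factors. Each zone was sequenced in 3 libraries of the PUB25 and of the SPT line and in 2 of the TMO5 line, 24 libraries in all. No treatment or mutation is given for any group, so all groups share the Col-0 background and the green fluorescent reporter. Plant age, growth conditions, the build of the reporter constructs and the position that each zone name stands for are not given in the sources used here.

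The deposited value is the authors' FPKM, the number of fragments per length of transcript and per size of the library, and each gene has a single value for a zone of a line. No level therefore carries an SD or an n, and the order of neighbouring levels cannot be tested against replicate spread. Rose and fell are used below where the authors' deposited table gives a q value, an adjusted p-value, under 0.05, and folds named as log2 are the authors' log2 ratio of FPKM. The 3 lines stand in separate tables, so their levels are set side by side and not tested. Because each zone is a bulk of sorted cells, fewer cells that express a gene and less of its RNA per cell cannot be told apart.

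Cytokinin is sensed by histidine kinase receptors of the AHK family, and phosphate then passes through AHP phosphotransfer proteins to response regulators in the nucleus. Type-B regulators are DNA-binding transcription factors that switch on the type-A genes within minutes of a cytokinin stimulus. Type-A proteins carry the phosphate-receiving domain but no DNA-binding output domain, and they act as negative feedback on the same relay. In the root meristem cytokinin is known for promoting the passage of cells from division to differentiation, with the type-B regulators ARR1 and ARR12 in that role. Type-A transcripts are widely used as a readout of the response.

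The members form 5 pairs by coding sequence. In the RefSeq annotation of TAIR10.1 each of the 10 genes has 5 coding exons, and the coding length ran from 465 bases in ARR17 to 972 in ARR3. The closest pairs were ARR16 with ARR17 at 82.9% identity, ARR3 with ARR4 at 80.7%, ARR5 with ARR6 at 80.1%, ARR8 with ARR9 at 79.9% and ARR7 with ARR15 at 79.4%. The closest pairing outside these was ARR5 with ARR15, at 72.6%. No 2 members shared a run of 50 identical coding bases, and the longest shared run was 41 bases, in ARR3 with ARR4 and in ARR8 with ARR9. The read length is not given in the sources used here, so a split of reads between the members of a pair was not tested.

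The upstream sequences of 4 members are shown because ARR4, ARR5 and ARR6 rose together in the SPT line while ARR7, of the same family, peaked in Medial cells. Each is the 300 bases upstream of the RefSeq gene's 5′ end, read 5′ to 3′ on the gene's own strand, which is the minus strand for all 4. The positions on TAIR10.1 are chr1:3444361-3444660 for ARR4, chr3:17760951-17761250 for ARR5, chr5:25254319-25254618 for ARR6 and chr1:6579315-6579614 for ARR7. Capitals mark the core letters recognised by type-B regulators on either strand, which are AGATT and its variant AGATC, together with GGATT and its variant GGATC, and a match read the same on both strands (AGATCT) counts on each.
ARR4: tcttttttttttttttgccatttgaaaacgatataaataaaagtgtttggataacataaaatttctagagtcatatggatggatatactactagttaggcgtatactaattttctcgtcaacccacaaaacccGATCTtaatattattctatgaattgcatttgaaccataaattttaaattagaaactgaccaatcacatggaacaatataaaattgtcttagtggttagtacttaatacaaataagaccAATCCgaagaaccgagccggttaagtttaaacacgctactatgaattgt
ARR5: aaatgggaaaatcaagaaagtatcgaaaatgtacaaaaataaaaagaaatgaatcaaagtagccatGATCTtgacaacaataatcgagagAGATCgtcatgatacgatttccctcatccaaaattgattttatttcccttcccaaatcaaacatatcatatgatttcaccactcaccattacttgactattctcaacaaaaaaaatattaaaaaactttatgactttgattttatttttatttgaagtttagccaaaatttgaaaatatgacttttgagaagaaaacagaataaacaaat
ARR6: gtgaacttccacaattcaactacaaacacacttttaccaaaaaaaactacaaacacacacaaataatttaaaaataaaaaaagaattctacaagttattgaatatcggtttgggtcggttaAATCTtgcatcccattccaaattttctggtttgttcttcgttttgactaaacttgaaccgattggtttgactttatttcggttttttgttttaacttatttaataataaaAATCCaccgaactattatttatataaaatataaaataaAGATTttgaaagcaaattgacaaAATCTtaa
ARR7: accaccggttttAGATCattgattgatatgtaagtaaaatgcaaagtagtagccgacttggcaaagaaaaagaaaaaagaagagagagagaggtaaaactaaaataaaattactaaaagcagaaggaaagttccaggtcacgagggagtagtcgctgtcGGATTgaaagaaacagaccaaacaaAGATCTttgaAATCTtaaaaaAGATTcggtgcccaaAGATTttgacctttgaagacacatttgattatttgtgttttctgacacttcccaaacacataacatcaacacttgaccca

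ARR4 and ARR5 held 2 matches each, ARR6 held 4 and ARR7 held 7. At least 2 matches were found in 70% of 27443 RefSeq promoters of the same length, at least 4 in 27.8% and at least 7 in 3.37%. The other members held between 2 matches (ARR3, ARR8, ARR9 and ARR17) and 8 (ARR16), with 5 in ARR15. The 8 matches of ARR16 were reached by 1.43% of promoters, and the 5 of ARR15 by 14.8%. By motif, AGATT stood in 7 of the 10 members and 70.7% of all promoters, AGATC in 5 and 31.7%, GGATT in 7 and 44%, and GGATC in 2 and 21.7%. Any of the 4 stood in all 10 members and in 90.4% of promoters. The richest windows belonged to ARR16, listed at 0 FPKM in 6 of its 9 zone values, and to ARR7, and the matches are a description of these letters only.

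In the authors' gene tables ARR4 had the highest FPKM of the family in each of the 9 zone values, and ARR15, ARR16 and ARR17 were at or near 0 in most. A second locus of ARR8, which the SPT table leaves out, was higher than ARR4 in that line and is described with ARR8. ARR4, whose protein also binds the photoreceptor phytochrome B, stood at 40.1 FPKM in Proximal, 66.6 in Medial and 78.3 in Distal cells, all in the PUB25 line, at 24.4, 51.1 and 92.7 in the SPT line and at 10.1, 12.7 and 17.4 in the TMO5 line. Without ARR8, ARR4 made up between 39.2% (SPT Medial) and 77.6% (TMO5 Medial) of the summed FPKM of the 9 genes left. That sum went from 98.8 through 127 to 134 FPKM in the PUB25 line, from 56.9 through 130 to 199 in the SPT line and from 14.9 through 16.4 to 27.8 in the TMO5 line. The summed level was thus highest in Distal cells of each line, with no error available for any sum. In the PUB25 line that gain was carried by ARR4, whose share of the sum went from 40.6% through 52.3% to 58.6%. Of the other genes in that sum only ARR3 was higher in Distal than in Proximal cells there, at 28.2 against 26.8 FPKM.

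**Figure D1:**
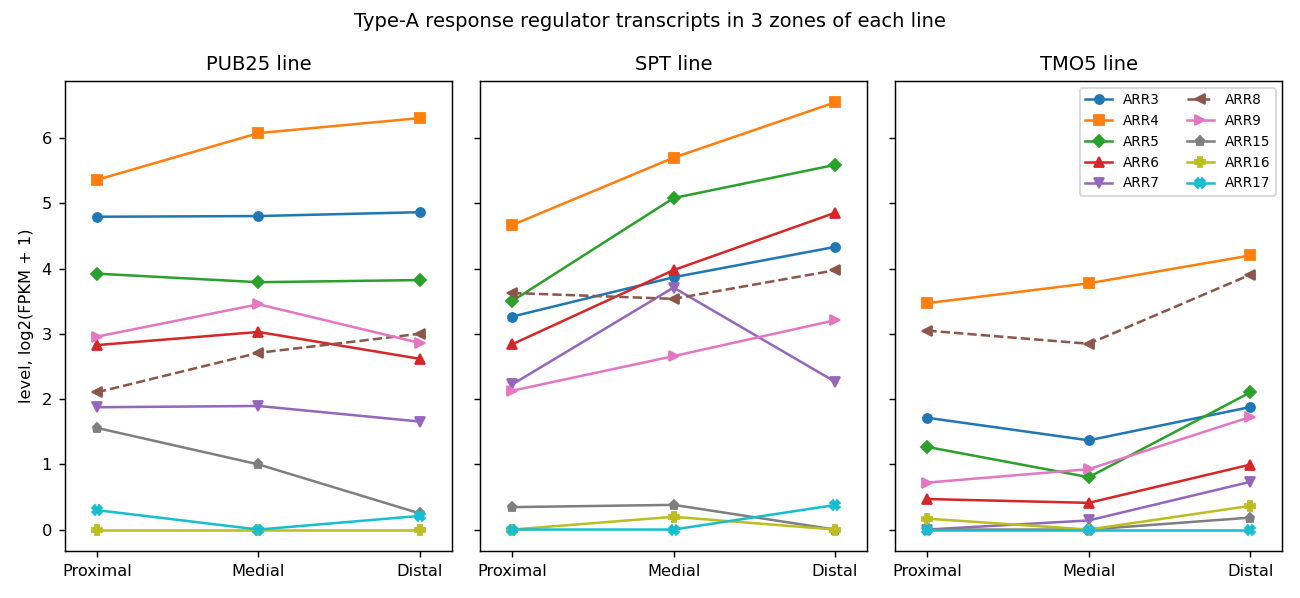
Level of each of the 10 genes as log2(FPKM + 1) on the vertical axis against the zone on the horizontal axis, with 1 panel per line and 1 point per deposited value, without error bars because there are no replicate values. ARR4 is the top line in each panel, the widest gains from Proximal to Distal are those of ARR4, ARR5 and ARR6 in the SPT line, and the broken ARR8 line does not follow the same locus in every panel.

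The SPT line had the most called members. From Proximal to Distal cells 5 of the 10 genes rose and none fell in the authors' deposited table, where 13.2% of all gene rows rose and 12.4% fell. Among genes that averaged 1 FPKM or more across that line, 24.7% rose and 23.1% fell. The median of the 10 members was 0.72 on the log2(FPKM + 1) scale. For the 7 members that averaged 1 FPKM or more it was 1.08, beside 0.06 for the 17365 genes that met the same minimum.

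ARR5 (AT3G48100, chr3:17758427-17760874 on TAIR10), the gene behind a much used cytokinin reporter, stood at 10.3 FPKM in Proximal, 32.9 in Medial and 47.2 in Distal cells of the SPT line. Its Proximal cells were low and its other zones high. It was 4.57-fold higher in Distal than in Proximal cells, which the authors' deposited table gives as a rise of 2.19 on the log2 scale (q value 0.000359). The rise had come by Medial cells (log2 1.67, q value 0.000359), and the step from Medial to Distal did not pass (0.52, q value 0.103).

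ARR6 (AT5G62920, chr5:25252386-25254212), its closest relative by sequence, stood at 6.16, 14.8 and 28.0 FPKM in the same 3 zones. Each zone was higher than the one before. It rose 4.54-fold from Proximal to Distal in the authors' deposited table, by 2.18 on the log2 scale with a q value of 0.000359, and each step passed, with log2 1.26 (q value 0.00493) and 0.92 (q value 0.00906).

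ARR4 (AT1G10470, chr1:3442327-3443957) climbed from 24.4 through 51.1 to 92.7 FPKM, again with each step passing in the authors' deposited table. The first step was 1.06 on the log2 scale (q value 0.000949), the second 0.86 (q value 0.00493), and the whole rise was 1.92 (q value 0.000359), or 3.79-fold.

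ARR3 (AT1G59940, chr1:22065617-22066973), the close relative of ARR4, stood at 8.62, 13.6 and 19.2 FPKM. ARR9 (AT3G57040, chr3:21109614-21111432) stood at 3.37, 5.32 and 8.25 FPKM. For both the whole distance passed while the single steps did not. In the authors' deposited table ARR3 rose by 1.15 on the log2 scale (2.22-fold, q value 0.00603), with q values of 0.115 and 0.209 for the steps. ARR9 rose by 1.29 (2.45-fold, q value 0.00715), with q values of 0.196 and 0.151 for the steps.

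ARR7 (AT1G19050, chr1:6577833-6579178), a gene known as a target of WUSCHEL repression in the shoot meristem, had another shape. It stood at 3.67 FPKM in Proximal, 12.1 in Medial and 3.81 in Distal cells of the SPT line, high in Medial cells alone. By the authors' deposited table it rose by 1.72 on the log2 scale into Medial cells (3.29-fold, q value 0.00531) and fell by 1.67 into Distal cells (q value 0.00414). Distal and Proximal cells differed by 0.05 (q value 0.943). ARR15, its closest relative, stood at 0.269, 0.300 and 0 FPKM there.

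By zone pair, the authors' deposited table had 4 members rising from Proximal to Medial cells of the SPT line (ARR4, ARR5, ARR6 and ARR7) and none falling, where 9.27% of all gene rows rose and 9.3% fell, and 17.4% of genes at 1 FPKM or more rose. From Medial to Distal cells 2 rose (ARR4 and ARR6) and ARR7 fell, where 6.34% of all gene rows rose and 5.51% fell. The medians of the 7 members at 1 FPKM or more were 1.03 and 0.51 on the log2(FPKM + 1) scale, beside -0.01 and -0.04 for all genes at that minimum.

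**Figure D2:**
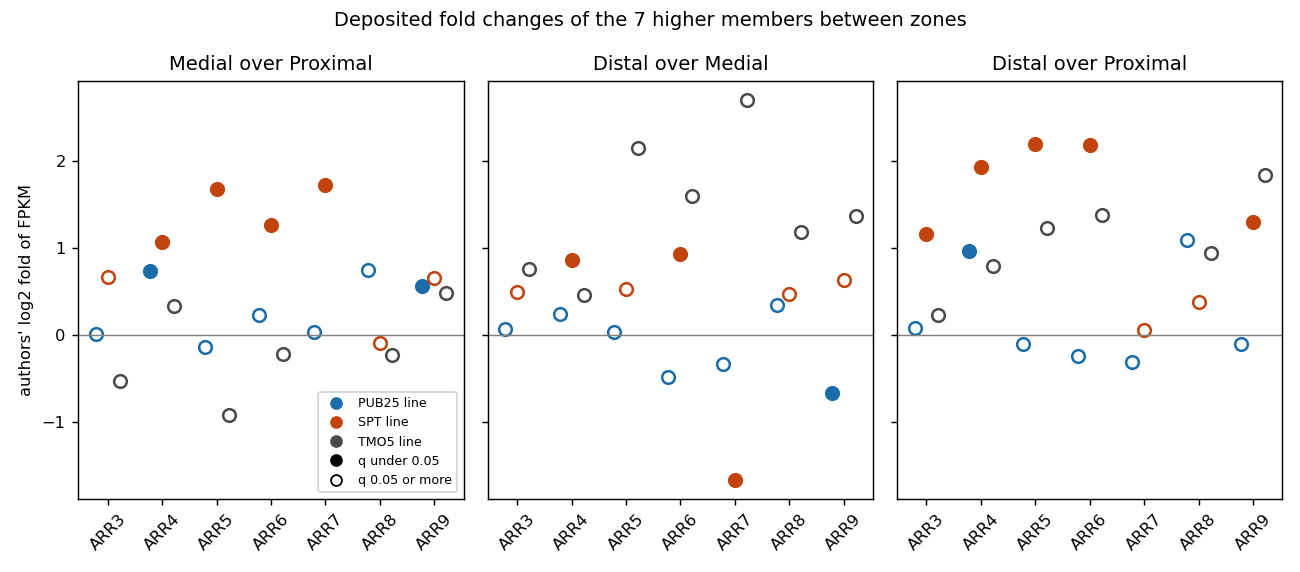
The authors' log2 fold of FPKM on the vertical axis for the 7 members ARR3 to ARR9, with 1 panel per zone pair, colours for the 3 lines, filled points for a q value under 0.05 and open points for 0.05 or more. The filled SPT points stand above 0 apart from ARR7 in Distal over Medial cells, at -1.67, and all TMO5 points are open, while the ARR7 folds against TMO5 Proximal cells, which are listed at 0 FPKM, are not drawn.

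Markers of several cell types moved with these rises in the SPT line. The summed FPKM of the 8 vessel genes went from 6.89 in Proximal through 899 in Medial to 517 in Distal cells, and 6 of the 8 rose from Proximal to Distal in the authors' deposited table. The 4 phloem genes summed to 11.01, 59.7 and 68.6 FPKM, the 5 endodermis and cortex genes to 27.3, 135 and 249, and the 2 pericycle genes to 1.77, 26.4 and 25.4. Of these, 3 phloem genes, 3 endodermis genes and 1 pericycle gene rose. SCR and CO2 of the endodermis and cortex list fell, with CO2 listed at 0 in Distal cells. The 3 measured root cap genes summed to 118, 90.7 and 310 FPKM, the 4 epidermis genes to 120, 135 and 97.6, the 3 early xylem genes to 18.4, 21.0 and 10.5, and the 3 stem cell niche genes to 93.1, 18.0 and 9.77. PLT1 and PLT2 of the niche list fell and WOX5 rose. Sums of vessel, phloem, endodermis and pericycle genes were thus higher in Medial and Distal than in Proximal cells, as the type-A sum was. From Medial to Distal cells the vessel and pericycle sums were lower, while the root cap sum was at its highest in Distal cells through BRN2, which went from 5.33 through 31.8 to 233 FPKM. FEZ of the root cap list fell from 45.1 through 11.3 to 1.43 FPKM in the authors' deposited table, and SMB stood at 67.8, 47.6 and 75.5. The part of these markers in the type-A values was not tested.

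In the PUB25 line ARR4 and ARR9 were the members called, and ARR3, ARR5, ARR6 and ARR7 stayed within narrow ranges of FPKM. From Proximal to Medial cells 2 of the 10 genes rose and none fell in the authors' deposited table, where 7.55% of all gene rows rose and 6.09% fell, and 14.7% of genes at 1 FPKM or more rose. From Medial to Distal cells 1 fell and none rose, where 5.84% of all gene rows fell and 5.8% rose. From Proximal to Distal cells 1 rose and none fell, where 10.3% of all gene rows rose and 8.93% fell. Counts of this size lie near the share of all genes. The median of the 8 members at 1 FPKM or more was 0.11, -0.10 and -0.10 on the log2(FPKM + 1) scale for Medial over Proximal, Distal over Medial and Distal over Proximal, beside -0.02, -0.00 and -0.01 for the 16605 genes at that minimum. ARR8 is among the 8 at the locus that the table carries, with 0.61 for Medial over Proximal beside -0.02 at its other locus.

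ARR4 was the riser there, from 40.1 to 66.6 FPKM by Medial cells (log2 0.73, q value 0.000407) and to 78.3 by Distal cells (log2 0.96 over Proximal, q value 0.000407), in the authors' deposited table. Its last step of 0.23 had a q value of 0.253. ARR9 stood at 6.77 FPKM in Proximal, 9.96 in Medial and 6.27 in Distal cells, with its high in the Medial zone. It rose by 0.56 on the log2 scale (q value 0.0244) and then fell by 0.67 (q value 0.0102) in the authors' deposited table, and its ends differed by -0.11 (q value 0.761).

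ARR3, ARR5 and ARR6, which rose in the SPT line, did not pass in any zone pair of the PUB25 line. ARR3 stood at 26.8, 27.0 and 28.2 FPKM (Distal over Proximal log2 0.07, q value 0.800 in the authors' deposited table), ARR5 at 14.2, 12.9 and 13.2 (-0.11, q value 0.710) and ARR6 at 6.10, 7.17 and 5.14 (-0.25, q value 0.538). The difference of these folds between lines was not tested, since there are no replicate values. ARR7 stood at 2.67, 2.72 and 2.15 FPKM (-0.31, q value 0.613), without the Medial peak of the SPT values. ARR15 was at 1.95, 0.999 and 0.187 FPKM, its highest levels in the series, and the drop from Proximal to Distal did not pass (log2 -3.38, q value 0.435).

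Vessel genes summed to 53.8 FPKM in Proximal, 44.2 in Medial and 187 in Distal cells in the PUB25 line, and 7 of 8 rose from Proximal to Distal in the authors' deposited table. The early xylem genes summed to 3.45, 9.95 and 31.5 FPKM, phloem genes to 2.06, 2.34 and 4.83 with APL at 0 in Proximal cells, and niche genes to 87.4, 39.3 and 20.2. Endodermis and cortex genes summed to 13.6, 23.4 and 23.6 FPKM, root cap genes to 265, 314 and 279, and epidermis genes to 129, 161 and 177. The root cap sum joined opposite moves from Proximal to Distal in the authors' deposited table. SMB fell from 129 through 87.8 to 47.3 FPKM and FEZ from 90.3 through 16.9 to 1.93, while BRN2 rose from 45.3 through 209 to 229. Pericycle genes summed to 0.177, 0.286 and 0.452 FPKM. Sums of vessel, early xylem, phloem, epidermis, endodermis and cortex, and pericycle genes were thus all highest in the Distal cells in which ARR4 was highest. For endodermis and cortex the margin over Medial cells was small, and WER of the epidermis list fell. The niche sum was highest in Proximal and the root cap sum in Medial cells. The part of any of these markers in the ARR4 rise was not tested.

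In the TMO5 line type-A levels were low and no member passed in any zone pair. The authors' deposited table, whose Cuffdiff q values come without an unadjusted p-value, called 0 of the 10 genes in each pair. ARR6, ARR7, ARR15, ARR16 and ARR17 stayed below 1 FPKM in every zone of this line. A missing call at that level does not show that they were unchanged. Of all gene rows 0.0123% rose and 0.0858% fell from Proximal to Medial, 0.999% rose and 0.00307% fell from Medial to Distal, and 0.592% rose and 0.126% fell from Proximal to Distal, so few genes of any kind passed. ARR4 went from 10.1 through 12.7 to 17.4 FPKM (Distal over Proximal log2 0.79, q value 0.619). ARR5 stood at 1.41, 0.745 and 3.29 FPKM (Distal over Medial 2.14, q value 0.605), and ARR9 at 0.647, 0.900 and 2.31 (Distal over Proximal 1.83, q value 0.732). ARR3 was at 2.28, 1.58 and 2.68 FPKM and ARR6 at 0.383, 0.328 and 0.993. ARR7 was listed at 0 in Proximal cells and at 0.102 and 0.660 FPKM in Medial and Distal cells. Distal cells held the highest value of each of ARR3 to ARR7 and ARR9 in this line, by differences whose replicate spread is unknown.

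The median of the 5 members that averaged 1 FPKM or more in the TMO5 line was -0.20, 0.80 and 0.84 on the log2(FPKM + 1) scale for Medial over Proximal, Distal over Medial and Distal over Proximal. The 15061 genes at that minimum had medians of -0.01, -0.04 and 0.00. ARR8 is among the 5 members at the locus that the table carries, and the -0.20 is its own value. At its other locus it stood at 2.40, 3.15 and 3.64 FPKM in this line, so these medians depend on the locus. Early xylem genes summed to 664, 587 and 435 FPKM in the 3 zones, against at most 31.5 in any zone of the other lines. Most of that sum was TMO5, the gene that names the line, at 481, 354 and 240 FPKM. T5L1 stood at 76.2, 66.3 and 49.8 FPKM and ACL5 at 106, 167 and 145. In the other lines T5L1 and ACL5 reached at most 7.98 and 16.1 FPKM, so these 2 genes went with the label of meristematic xylem. Vessel genes summed to 245, 22.4 and 612 FPKM with VND6 at 0 in Medial cells, and 3 of 8 rose from Proximal to Distal in the authors' deposited table. Phloem genes summed to 15.2, 10.4 and 7.41 FPKM with APL at 0 in all zones, pericycle genes to 5.65, 2.93 and 16.9, and root cap genes to 17.6, 16.2 and 8.94. Endodermis and cortex genes summed to 6.999, 10.5 and 6.02 FPKM and epidermis genes to 155, 130 and 110. Most of that epidermis sum was CPC, at 146, 119 and 97.0 FPKM. WER stood at 6.73, 7.51 and 6.15 FPKM, COBL9 at 1.78, 3.27 and 6.31 and GL2 at 0.271, 0.386 and 0.544. Vessel and pericycle sums were highest in Distal cells, as type-A values were. From Proximal to Medial cells both of these sums were lower, while the type-A sum without ARR8 went from 14.9 to 16.4 FPKM. The part of these markers in the type-A values was not tested.

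Set side by side, the xylem line had less of the 5 genes ARR3, ARR4, ARR5, ARR6 and ARR9 than either meristem line in all 3 zones. The ratio of SPT to TMO5 values ran from 2.42 for ARR4 in Proximal cells to 44.996 for ARR6 in Medial cells. The ratio of PUB25 to TMO5 values ran from 2.71 for ARR9 in Distal cells to 21.8 for ARR6 in Medial cells. The meristem lines differed between themselves by zone. ARR5 was at 0.729 of its PUB25 value in SPT Proximal cells, but 2.56 and 3.58 times that value in Medial and Distal cells. ARR6 was at 1.01, 2.06 and 5.45 times its PUB25 value, while ARR3 was at 0.322, 0.504 and 0.681 of it. These ratios have no error and no test, because the files hold no replicate values, and how the lines were scaled to each other is not given in the sources used here.

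ARR8 (AT2G41310, chr2:17221933-17224862), a type-A gene of the branch with ARR9, had 2 loci at the same coordinates in the files, and the authors' gene table did not carry the same one in each line. The table values were 3.30, 5.54 and 7.01 FPKM in the PUB25 line, 11.4, 10.6 and 14.7 in the SPT line and 7.28, 6.20 and 14.0 in the TMO5 line. The PUB25 and TMO5 values belong to 1 locus and the SPT values to the other. The locus left out of the table stood at 20.4, 20.1 and 13.2 FPKM in the PUB25 line, at 139, 146 and 117 in the SPT line and at 2.40, 3.15 and 3.64 in the TMO5 line. The left-out SPT values exceed those of ARR4 in the same zones, so the place of ARR8 in the order depends on the locus. The locus that the table carries was the lower of the 2 in the PUB25 and SPT lines and the higher in the TMO5 line.

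The files give no strand. Loci next in number to the one carried for the SPT line matched 91 reference genes, 87 on the plus strand and 4 on the minus strand, and those next to the other matched 93, with 1 on the plus strand and 92 on the minus. ARR8 itself lies on the plus strand of the reference, so the locus carried for the PUB25 and TMO5 lines is numbered among genes of the opposite strand. Whether reads were counted by strand is not given in the sources used here, and reads of the gene and of any antisense transcript at the locus cannot be told apart. No table value of ARR8 passed, with log2 1.09 (q value 0.500) in the PUB25 line, 0.38 (q value 0.570) in the SPT line and 0.94 (q value 0.998) in the TMO5 line for Distal over Proximal in the authors' deposited table. On the log2(FPKM + 1) scale the left-out locus changed by -0.60, -0.25 and 0.45 over the same distance, so the PUB25 and SPT directions are opposite at the 2 loci. ARR8 was not the only such name. Of 606 names with several loci, 237 carried the same locus in the 3 tables, 356 did not, and 13 could not be assigned by value.

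**Figure D3:**
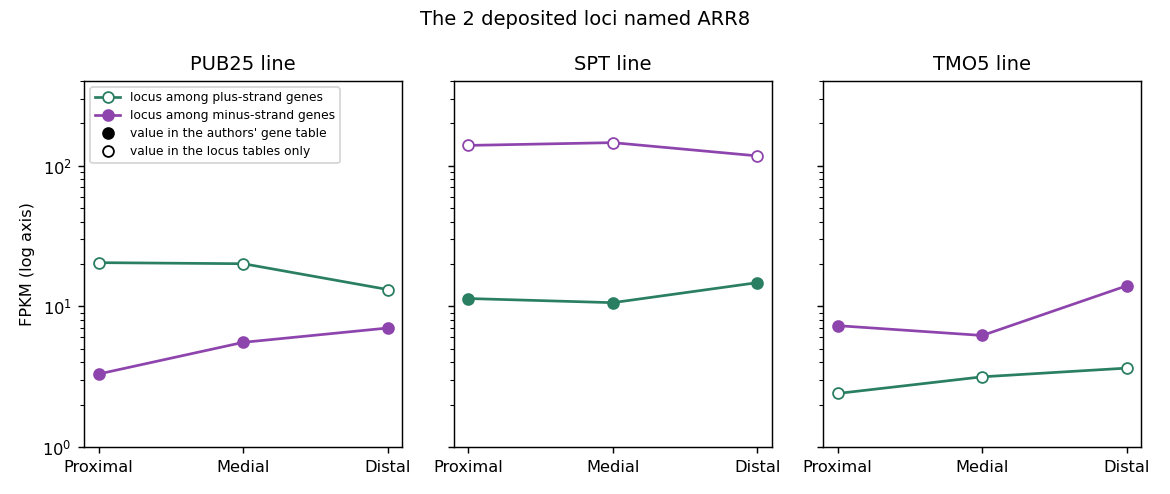
FPKM on a log axis against the zone for the 2 deposited loci named ARR8, with 1 panel per line, colour for the locus by the strand of its neighbours and filled points for the locus that the authors' gene table carries. The filled points change colour in the SPT panel, where the locus left out is at 117 to 146 FPKM.

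The remaining genes were ARR15, ARR16 and ARR17. ARR15 (AT1G74890, chr1:28131590-28132710) was above 1 FPKM only in PUB25 Proximal cells. ARR16 (AT2G40670, chr2:16970230-16971234), which acts in the stomatal lineage of leaves, had 0.145 FPKM in SPT Medial cells, 0.123 and 0.286 in TMO5 Proximal and Distal cells, and 0 elsewhere. ARR17 (AT3G56380, chr3:20905480-20906368) had 0.229 and 0.156 FPKM in PUB25 Proximal and Distal cells, 0.298 in SPT Distal cells and 0 elsewhere. These levels are too low to order, no fold is given against a zone listed at 0, and without counts no detection limit can be set.

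Within lines, ARR3, ARR5 and ARR6 moved most alike. Over the 9 zone values, centred within each of the 3 lines on the log2(FPKM + 1) scale, Pearson's r was 0.959 for ARR3 with ARR5, 0.935 for ARR3 with ARR6 and 0.927 for ARR5 with ARR6. ARR6 with ARR9 gave 0.866, ARR4 with ARR6 0.847 and ARR3 with ARR4 0.831. ARR7 stood apart, with r between 0.153 and 0.421 against ARR3, ARR4, ARR5, ARR6 and ARR9. Against ARR8, whose values mix loci between lines, it was 0.051. Values of 1 zone share their libraries and scaling, and the SPT line spans the widest range, so these coefficients are a description.

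Among 5796 named genes at 1 FPKM or more in every line, the closest to ARR4 by the same measure was VHA-A, the catalytic subunit of the vacuolar proton pump, with r of 0.997. VHA-A stood at 96.4 FPKM in Proximal, 164 in Medial and 271 in Distal cells of the SPT line. ARR5 was closest to LEA4-5, a late embryogenesis abundant protein gene (r of 0.986), at 5.58, 59.1 and 79.0 FPKM there. ARR6 was closest to the nitrate reductase gene NIA2 (r of 0.989), at 5.65, 13.5 and 30.6 FPKM. ARR3 was closest to TOPP5, a protein phosphatase gene (0.974), ARR9 to LPPgamma, a lipid phosphate phosphatase gene (0.985), and ARR7 to SCL1, a GRAS family gene (0.950). The ARR8 value of 0.946 with EXO70C2 mixes loci between lines. Each is the highest of many coefficients over 9 values.

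The rest of the cytokinin pathway was read from 55 genes in 9 lists, of which 54 were measured, since the receptor gene AHK3 lies in a row joined with another gene. From Proximal to Distal cells the authors' deposited table had 12 of these genes rising and 10 falling in the PUB25 line, 20 and 8 in the SPT line and 0 and 1 in the TMO5 line. Of all gene rows 10.3% rose and 8.93% fell in the PUB25 line, 13.2% and 12.4% in the SPT line and 0.592% and 0.126% in the TMO5 line. For Medial over Proximal the counts were 8 and 6, 16 and 3, and 0 and 1 in the same order of lines, beside 7.55% and 6.09%, 9.27% and 9.3%, and 0.0123% and 0.0858% of all gene rows. For Distal over Medial they were 7 and 3, 9 and 4, and 1 and 0, beside 5.8% and 5.84%, 6.34% and 5.51%, and 0.999% and 0.00307%.

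Several genes of the upstream relay also rose in the SPT line. Of 11 type-B genes 5 rose from Proximal to Distal and none fell in the authors' deposited table, where 13.2% of all gene rows rose. ARR10 stood at 32.8, 50.01 and 98.1 FPKM (log2 1.58, q value 0.000359), ARR12 at 42.1, 44.5 and 80.7 (0.94, q value 0.00219) and ARR1 at 38.7, 36.5 and 70.0 (0.86, q value 0.00838). ARR2 and ARR11 were the others. In the PUB25 line ARR10 alone of the 11 rose, from 56.5 to 75.1 FPKM (0.41, q value 0.0241). In the TMO5 line ARR12 stood at 63.0, 63.3 and 53.1 FPKM and ARR1 at 25.02, 29.3 and 34.7, with no type-B gene called. ARR10 stood at 6.03, 3.83 and 7.41 FPKM there. Side by side with the meristem lines, the ARR12 values of the xylem line lay within their range, while those of ARR1 and ARR10 lay below it.

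Both measured receptors rose from Proximal to Distal in the authors' deposited tables of the PUB25 and SPT lines. AHK4, the receptor needed for vascular divisions in the root, stood at 22.1, 40.0 and 52.0 FPKM in the PUB25 line (log2 1.24, q value 0.000407) and at 14.5, 14.6 and 27.8 in the SPT line (0.94, q value 0.00171). In the TMO5 line it stood at 55.8, 59.3 and 49.0 FPKM and was not called. AHK2 rose by 0.94 (q value 0.000407) and 1.18 (q value 0.00679) in the PUB25 and SPT lines.

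Of the 6 phosphotransfer genes, 4 rose in the SPT line from Proximal to Distal and 1 fell in the authors' deposited table. AHP2 went from 4.36 through 18.5 to 37.8 FPKM (log2 3.12, q value 0.000359), AHP1 and AHP3 rose by 1.27 and 1.26, and AHP4 was listed at 0, 0.586 and 1.88. AHP6, the pseudo-phosphotransfer protein that blocks the relay in protoxylem, fell there from 11.5 through 1.72 to 0.998 FPKM (-3.52, q value 0.00641). AHP6 was highest in the TMO5 line, at 293, 133 and 100 FPKM, where it was the pathway gene that fell from Proximal to Distal (-1.55, q value 0.00777). In the PUB25 line AHP6 rose by 3.61 (q value 0.000407), from 1.23 through 2.81 to 15.0 FPKM, and AHP2 rose by 1.56, while AHP1 and AHP5 fell. AHP6 and the synthesis gene LOG7 have 2 loci each in the files, and the tables carry the same one in each line. Of the marker genes CPC (epidermis), BRN2 (root cap) and PLT1 (stem cell niche) also have 2 loci. The tables carry the same CPC locus in each line, but another BRN2 and another PLT1 locus in the TMO5 line than in the PUB25 and SPT lines, so root cap and niche sums are not comparable between TMO5 and the other lines.

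**Figure D4:**
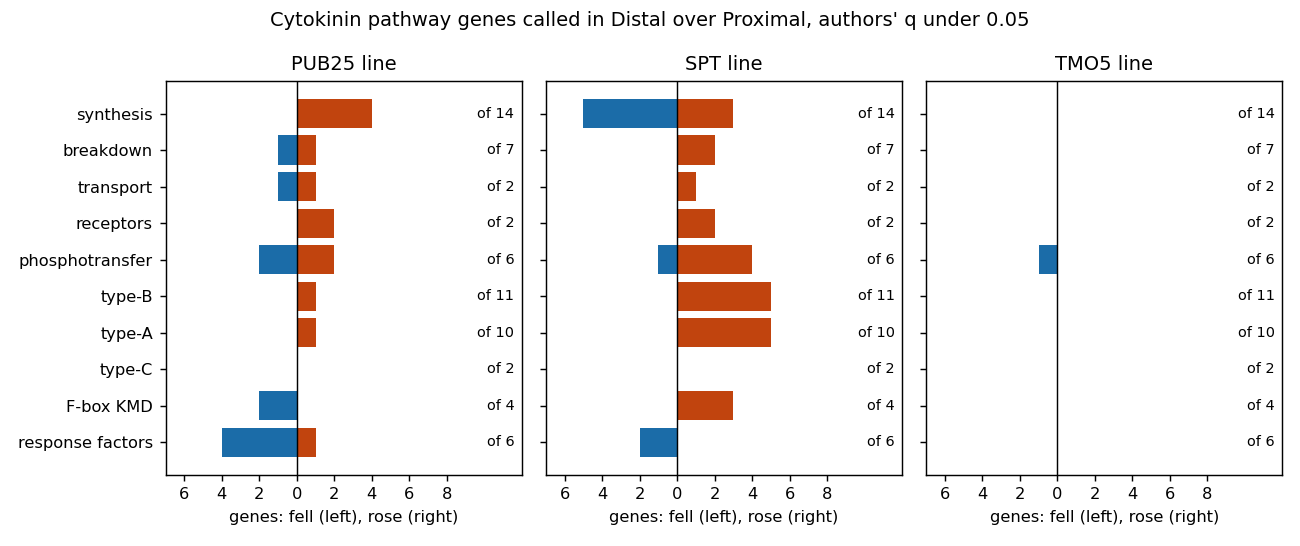
Number of genes of each cytokinin list called at a q value under 0.05 for Distal over Proximal, from the authors' deposited tables, with falls drawn to the left of 0 and rises to the right, 1 panel per line and the number of measured genes at the right. In the SPT panel 5 of 10 type-A and 5 of 11 type-B genes rose with no fall, in the PUB25 panel 1 of each rose, and the TMO5 panel holds the fall of AHP6.

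Synthesis, breakdown and transport genes moved in several directions. LOG7, an enzyme that releases active cytokinin, stood at 19.4, 156 and 309 FPKM in the SPT line (log2 3.996, q value 0.000359) and at 9.94, 145 and 213 in the PUB25 line (4.42, q value 0.000407) in the authors' deposited table. Of 14 synthesis genes 3 rose from Proximal to Distal cells of the SPT line (IPT5, LOG1 and LOG7) and 5 fell, LOG4 among them (log2 -2.50, q value 0.0207). In the PUB25 line 4 rose (IPT5, LOG3, LOG4 and LOG7) and none fell. LOG3 and LOG4, direct targets of the TMO5 dimer, were highest in the TMO5 line, LOG3 at 104, 77.3 and 58.0 FPKM and LOG4 at 27.8, 30.4 and 26.3, with no call. CKX4, a cytokinin oxidase, stood at 0.863, 9.42 and 16.6 FPKM in the SPT line and at 16.2, 28.0 and 3.34 in the PUB25 line. It rose from Proximal to Medial cells in the authors' deposited tables of both lines (log2 3.45, q value 0.000359, and 0.79, q value 0.000407). From Proximal to Distal cells it rose in the SPT line (4.26, q value 0.000359) and fell in the PUB25 line (-2.28, q value 0.000407). CKX5 rose in both, so that 2 of 7 breakdown genes rose in the SPT line and 1 rose and 1 fell in the PUB25 line. The exporter gene ABCG14 rose in both lines, from 2.39 through 10.8 to 17.8 FPKM in the SPT line, and the importer gene PUP14 fell in the PUB25 line, by 0.77 (q value 0.000407).

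Turnover genes and downstream response factors differed from each other in the SPT line. Of the 4 KMD genes, F-box proteins that mark type-B regulators for degradation, 3 rose in the SPT line from Proximal to Distal and none fell in the authors' deposited table, KMD2 from 34.5 through 101 to 109 FPKM (log2 1.66, q value 0.000359). In the PUB25 line KMD1 and KMD4 fell and none rose. KMD2 rose from Medial to Distal cells of the TMO5 line (2.196, q value 0.00777), from 5.07 to 23.2 FPKM. Of the 6 cytokinin response factor genes, which encode AP2/ERF transcription factors, CRF2 and CRF4 fell in the SPT line and none rose in the authors' deposited table. CRF4 went from 23.8 through 9.72 to 3.12 FPKM there (-2.94, q value 0.000359) and from 11.7 through 17.9 to 32.3 in the PUB25 line (1.46, q value 0.000407). CRF6 went from 12.3 through 6.02 to 2.17 FPKM in the PUB25 line (-2.50, q value 0.000407), where CRF2, CRF3 and CRF5 fell too. The type-C genes ARR22 and ARR24 were listed at 0 FPKM except for 0.208 of ARR22 in SPT Distal cells.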

How the data were processed

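RNA-seq of 24 libraries was used as deposited. Per the labels, an RNeasy micro kit gave the RNA and a NuGEN Ovation ultralow kit the libraries. Bowtie, TopHat, Cufflinks, Cuffdiff and TAIR10 are named in the submitters' processing notes, with no version or role. The authors deposited FPKM, 1 value per gene, line and zone, and how replicate libraries were combined is not given in the sources used here. The authors' deposited tables also hold a log2 fold and a q-value per zone pair. The files hold no counts, so depth is unknown and no interval is given. Lines stand in separate tables with smallest q values of 0.000407, 0.000359 and 0.00777.

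Computed here were log2(FPKM + 1) differences, medians over genes averaging 1 FPKM or more, within-line correlations and counts at a q value under 0.05. No test was run, since the files hold no replicate values and the planned limma fit needs them. Labels do not say whether replicates came from separate plants. Deposited starts count from 0 and were converted to count from 1. Zone and gene tables were compared for 32013 names with a single locus, and 1 differed by over 0.01%. Rows without a name (845 per table) and rows joining several genes (1390) were not used as members. Of 25732 loci of a single gene, 100% overlapped their reference gene on TAIR10.1, and 40.6% had the same start or the same end. The upstream windows and their motif counts thus rest on the RefSeq gene ends and not on those of the deposited loci. Coding sequences and promoters are from RefSeq, TAIR10.1, and coding identity was computed in place of protein identity. The members, the pathway and marker lists and the comparisons were chosen with earlier results of these data known. Named were all members, in each list the largest rise and fall between Distal and Proximal with others needed to describe it, and for each member reaching 5 FPKM its most alike gene. The code was tested on simulated data for Distal over Proximal of each line, where 200 genes of 32619 changed 4-fold and 100% were recovered with 0 false calls. Little noise was added, only genes averaging 5 FPKM or more were changed, and calls were made at a 2-fold difference. The simulation therefore checks the arithmetic of the code and not the calls by q value. Alternatives were a q value under 0.01, a 2-fold difference, a pseudocount of 0.1, minimum means of 1 and 5 FPKM, quantile normalization and median centring. Tools were Python 3.11.15, numpy 2.4.6, pandas 2.3.3, scipy 1.17.1, biopython 1.88 and matplotlib 3.10.9.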

Additional observations from a re-analysis of the deposited data

How the results depend on the processing

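The SPT counts for Medial over Proximal and Distal over Proximal stayed within 1.5 times under every alternative run. For Distal over Medial in the SPT line the 3 called members became 1 with a 2-fold difference in place of the q value, with or without quantile normalization, median centring or a minimum mean of 1 or 5 FPKM. On the FPKM as deposited that member was ARR7, which was lower in Distal cells. The rises of ARR4 and ARR6 stayed below 2-fold there, at 0.85 and 0.88 on the log2(FPKM + 1) scale. In the PUB25 line the 2 members for Medial over Proximal became 1, ARR4, at a q value under 0.01. A 2-fold difference with a pseudocount of 0.1 also counted 1, but that was ARR17, which went from 0.229 to 0 FPKM. With a 2-fold difference under the other settings the count was 0. The 1 for Distal over Medial, ARR9, became 0 at a q value under 0.01 and with a 2-fold difference, and 2 with a pseudocount of 0.1. Those 2 were ARR15 and ARR17 and not ARR9. The 1 for Distal over Proximal was ARR4, which rose, and it became 2 with that pseudocount (ARR8 and ARR15) and 0 with a minimum mean of 5 FPKM. Where a 2-fold difference again counted 1, that member was ARR15, which was lower in Distal cells. ARR4 stayed below 2-fold, at 0.95 on the log2(FPKM + 1) scale. In the TMO5 line the 0 called members became, with a pseudocount of 0.1, 2 for Medial over Proximal, 7 for Distal over Medial and 5 for Distal over Proximal. With a 2-fold difference or a minimum mean of 1 FPKM they became 2 for Distal over Medial and 1 for Distal over Proximal, and 1 for Distal over Medial with centring or a minimum mean of 5 FPKM. A 2-fold difference is no test, which is how members that missed the q value come to be counted, and the cause of the other shifts was not tested. Of 279 recomputed member folds 28 moved by over 1.5-fold, 22 of them with the pseudocount of 0.1 and 6 at the other ARR8 locus, an alternative chosen after seeing the data. The sign changed in 11, of which 0 were called, with 7 of 9 at the other ARR8 locus and 4 of 90 with quantile normalization. At that locus Distal over Proximal was -0.60 in the PUB25 line and -0.25 in the SPT line, against 0.90 and 0.35 at the locus the tables carry. For Distal over Medial in the TMO5 line centring changed every fold by -0.13 and quantile normalization changed the median fold of all genes by -0.11, and for Distal over Proximal by -0.10 each. No paired analysis was possible because the files hold 1 value per zone, and leaving out each replicate and the replicate block were not run for the same reason. Without counts, low values such as those of ARR15, ARR16 and ARR17 have no known precision.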
